A study of Mus musculus with 10 samples.

Results

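The nuclear genes of the mitochondrial respiratory complexes are followed here through mouse spermatogenesis. They were taken by name from the deposited gene tables, as every row whose symbol begins with Nduf, Sdh, Uqcr, Cox4 to Cox8, Cyct, Cycs or Atp5, leaving out names with -ps and Ndufs5. This gave 95 of 36806 genes. They comprise 36 rows of complex I, 4 of complex II, 8 of complex III, 18 of complex IV, 16 of complex V, the 2 cytochrome c genes, and 11 assembly factors and other names that are not subunits. Ndufb8 has 2 rows that share a locus, the second of which now carries the symbol Gm20538, and Atp5l2 is now named Atp5l2-ps. Cox4i1 and Cox4nb share 1 locus window, so the reads of neither pair of rows can be separated with certainty. At least 1 FPKM (the unit is explained below) was reached in either condition by 94 members at day 3, 93 in each of the pre-meiotic and leptotene/zygotene tables and 91 at pachytene.

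The samples came from Ago4+/+ and Ago4-/- littermates of the C57BL/6 strain. Ago4 encodes a member of the Argonaute family, proteins that are loaded with small RNAs. RNA was sequenced from pachytene cells and from leptotene/zygotene cells (age 70 days) and from whole testes (ages 3 and 8 days), with 1 library per genotype in each. The labels do not say how the spermatocytes were isolated or whether animals were pooled. Each of 4 tables (day 3, pre-meiotic, leptotene/zygotene and pachytene) lists FPKM, fragments scaled by transcript length and library size, for a first and a second condition. The tables do not say which condition is which genotype, and the pre-meiotic table gives no age. Differences within a table are therefore given as second against first condition, with no genotype attached. The 2 libraries of a table differ in genotype and are not replicates.

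The respiratory chain sits in the inner mitochondrial membrane. Complexes I and II pass electrons from NADH and succinate to ubiquinone, complex III passes them to cytochrome c, and complex IV passes them to oxygen, while complex V uses the resulting proton gradient to make ATP. Most subunits are encoded in the nucleus, and several small subunits of complex IV exist in more than one form. Male germ cells have their own forms of some of them. COX6B2, COX7B2 and COX8C are testis forms of complex IV subunits, and Cyct encodes the testis form of cytochrome c. The X chromosome is silenced in pachytene spermatocytes, and some X-linked genes for metabolic enzymes have autosomal copies that are used in the germline.

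Marker genes were read before the members. The summed FPKM of 5 Sertoli cell markers lay between 2327 and 2690 in the 4 whole testis libraries and between 41.0 and 110.4 in the 4 spermatocyte libraries. The word spermatocyte stands here for the libraries labelled leptotene/zygotene or pachytene, by label only. The libraries labelled leptotene/zygotene went against their label in spermatid markers. Their 6 spermatid markers (protamines, transition proteins and acrosomal genes) summed to 45710 and 53970 FPKM, against 6910 and 8996 in the pachytene libraries. The 6 leptotene/zygotene markers were mixed. Against the pre-meiotic table, 2 were at least 2-fold lower there in every pairing of libraries and 1 was higher. Dmc1, a recombinase of early prophase, was at 3.02 and 3.73 FPKM there, below the 24.1 and 12.9 of the pre-meiotic table. Spo11 went the other way, at 11.0 and 12.0 against 4.11 and 1.53. The 6 summed to 133.5 and 112.6 FPKM, against 218 and 125. Ldhc, a germline lactate dehydrogenase, stood at 4507 and 4116 FPKM in the leptotene/zygotene libraries. Stage results below are therefore mainly given without these libraries, as pachytene directly against pre-meiotic, and only some are also given with them. The direct comparison was added after the data were seen. The tables were normalised separately, so levels set across them carry no test.

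The clearest pattern among the members was an exchange of somatic for germline forms between the whole testis and the spermatocyte libraries. The germline forms lie on chromosome 7 (Cox6b2), chromosome 5 (Cox7b2), chromosome 12 (Cox8c) and chromosome 2 (Cyct), and the somatic forms on chromosome 7 (Cox6b1), the X chromosome (Cox7b), chromosome 19 (Cox8a) and chromosome 6 (Cycs). Cox8c was listed at 3.76 and 2.27 FPKM at day 3, 9.15 and 4.11 in the pre-meiotic table, 471 and 453 at leptotene/zygotene, and 1075 and 1086 at pachytene, the first condition being given first here and below. Its somatic counterpart Cox8a stood at 268 and 368, then 166 and 179, then 16.5 and 13.2, and finally 16.1 and 23.3 FPKM. The spermatocyte and whole testis libraries did not overlap for either gene. Such separation was common: 23% of all genes were at least 2-fold higher at pachytene than pre-meiotic in every pairing of libraries, and 43.2% lower. The ratio of mean pachytene to mean pre-meiotic level, with 0.1 FPKM added to each, was 161 for Cox8c, and Cox8a was 8.71-fold lower.

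Cox7b, the X-linked somatic form of another small complex IV subunit, stood at 674 and 925 FPKM in day 3 testis, 220.5 and 195 in pre-meiotic testis, 8.53 and 8.35 at leptotene/zygotene, and 5.23 and 2.27 at pachytene. The autosomal germline form Cox7b2 was at 5.49 and 3.47, 24.0 and 23.2, 254 and 237, and 422 and 551 FPKM in the same order. From pre-meiotic to pachytene the somatic form was 54-fold lower and the germline form 20.6-fold higher. Cox6b2 was listed at 33.5 and 66.0, 23.4 and 14.9, 281 and 239, and 424 and 391 FPKM. Cox6b1, its somatic counterpart, was at 239.7 and 352, 225 and 203, 17.5 and 12.7, and 21.6 and 24.2 FPKM. Cox6b2 had the highest day 3 level of the 4 germline forms, and its whole testis libraries still all lay below every spermatocyte library.

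Cytochrome c, the soluble electron carrier between complexes III and IV, showed the same exchange at lower levels. Cycs, the somatic gene, was at 81.6 and 75.4 FPKM at day 3, 83.6 and 79.8 in the pre-meiotic table, 4.22 and 4.94 at leptotene/zygotene, and 4.30 and 6.28 at pachytene. Cyct was at 5.79 and 4.77, 24.0 and 22.7, 74.7 and 57.4, and 161 and 248 FPKM. In the pre-meiotic table Cyct was the germline form with the largest share of its pair, at 22.3% and 22.1% of the summed Cycs and Cyct level, and it made up 97.4% and 97.5% at pachytene.

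FPKM is scaled by transcript length, so the share of the germline form can be compared between pairs. The 3 complex IV germline forms made up between 0.373% and 15.8% of their pair in the 4 whole testis libraries and between 94.1% and 99.6% in the 4 spermatocyte libraries. The 2 libraries of a spermatocyte table were close, as for Cox7b2 at 98.8% and 99.6% at pachytene. Those of whole testis were not always so, as for Cox8c at 5.23% and 2.24% in the pre-meiotic table. In bulk RNA, fewer cells of a type and less RNA per cell cannot be told apart, and the fall of the somatic forms moved with the fall of the Sertoli markers given above. From the pre-meiotic table to pachytene, the 6 spermatid markers rose with the germline forms, from 65.2 and 61.3 to 6910 and 8996 FPKM. Pachytene against pre-meiotic thus carries spermatid marker RNA as well. From leptotene/zygotene to pachytene these markers fell in sum. As deposited, the germline forms rose in mean level between these tables. Of the 4, 2 were at least 2-fold higher in every pairing of libraries (all genes: 9.33%). Relative to the common genes, a scaling described below, 0 members were. The pachytene markers summed to 54.2 and 47.2 FPKM in the pre-meiotic table, 6478 and 6160 at leptotene/zygotene, and 7157 and 7142 at pachytene. The part of any marker list in the result was not tested.

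**Figure D1:**
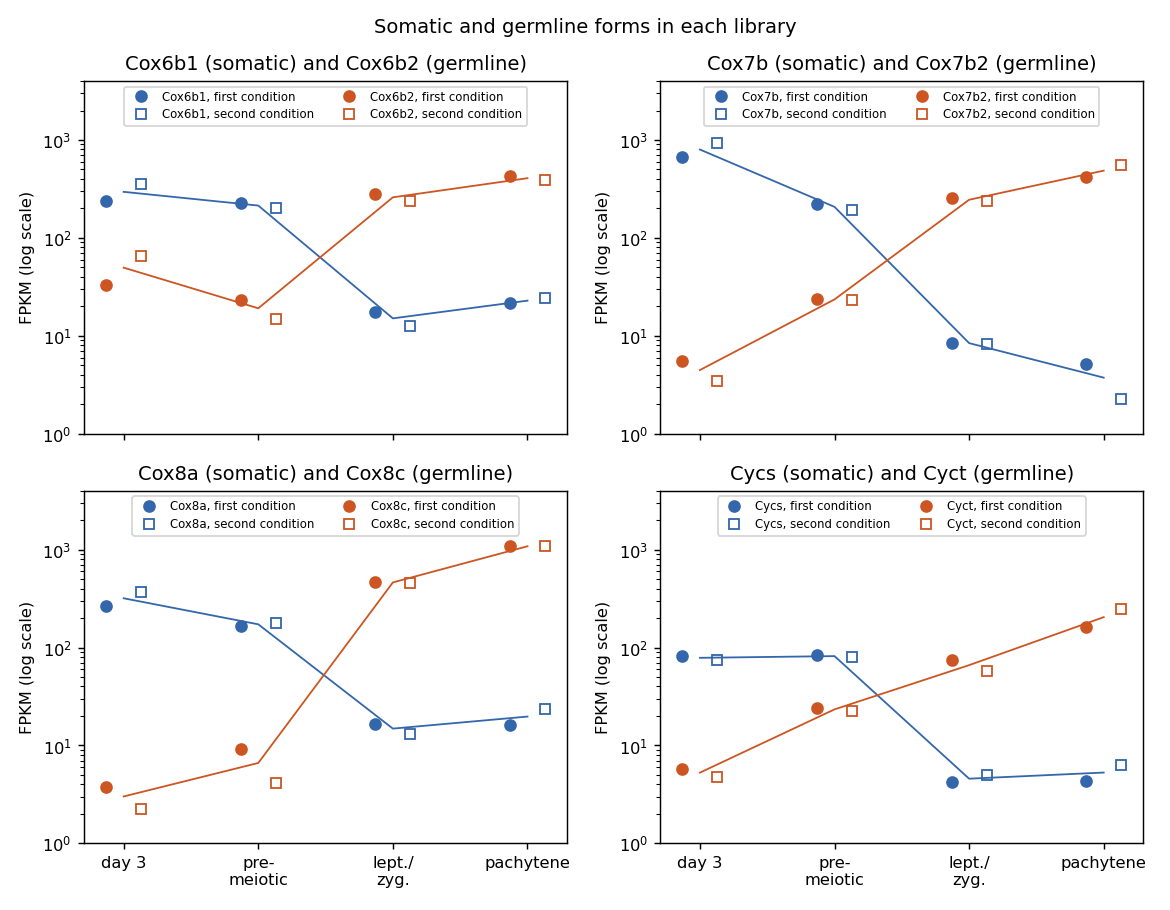
FPKM (log axis) of 4 somatic forms (blue) and their germline counterparts (orange) in each library, with filled circles for the first and open squares for the second condition of a table, and lines through the mean of both. In all 4 panels the germline form lies below the somatic form in whole testis and above it in both spermatocyte tables, reaching 1075 and 1086 FPKM for Cox8c at pachytene.

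The promoters of these pairs are shown because their levels moved in opposite directions. Each line gives the 250 bases before the transcription start from RefSeq on GRCm38.p6, written 5′ to 3′ on the gene's strand, with capitals marking the cyclic AMP response element TGACGTCA. The genes lie on the minus strand at chr6:50566570-50566819 (Cycs), chr2:76360454-76360703 (Cyct) and chr5:71548206-71548455 (Cox7b2), and on the plus strand at chrX:106015450-106015699 (Cox7b).
Cycs: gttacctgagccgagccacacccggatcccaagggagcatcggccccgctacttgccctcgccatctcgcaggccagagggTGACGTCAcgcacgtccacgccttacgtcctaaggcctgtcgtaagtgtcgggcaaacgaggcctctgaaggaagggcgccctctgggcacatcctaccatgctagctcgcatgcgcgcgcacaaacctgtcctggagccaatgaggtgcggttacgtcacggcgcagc
Cyct: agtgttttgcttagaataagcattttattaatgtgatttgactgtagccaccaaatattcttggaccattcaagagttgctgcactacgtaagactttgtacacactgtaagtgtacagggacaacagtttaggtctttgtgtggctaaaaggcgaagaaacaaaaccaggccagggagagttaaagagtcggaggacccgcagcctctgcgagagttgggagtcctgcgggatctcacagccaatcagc
Cox7b: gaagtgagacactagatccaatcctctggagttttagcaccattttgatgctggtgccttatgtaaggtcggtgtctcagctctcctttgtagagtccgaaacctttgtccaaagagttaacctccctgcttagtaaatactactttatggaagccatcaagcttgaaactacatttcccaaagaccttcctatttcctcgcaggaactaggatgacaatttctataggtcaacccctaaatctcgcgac
Cox7b2: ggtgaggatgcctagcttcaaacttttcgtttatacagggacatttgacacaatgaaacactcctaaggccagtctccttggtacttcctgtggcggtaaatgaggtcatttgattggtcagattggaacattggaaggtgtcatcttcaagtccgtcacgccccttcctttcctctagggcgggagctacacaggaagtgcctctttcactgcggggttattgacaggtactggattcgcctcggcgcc

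Promoters were found by symbol for 78 of the 95 rows, which are 77 genes. TGACGTCA was searched on both strands, which are the same for this palindrome, and lay in 5 of the 77 members' windows (6.49%), those of Cycs, Ndufa10, Ndufa11, Ndufb2 and Uqcrfs1. It lay in 1.77% of the 27025 genes with a window of the same length. The core letters of the site of the factor NRF1, TGCGCA, lay in 14 members' windows (18.2%) and in 7.36% of all genes. A letter match describes these windows and does not show a binding site. The windows also differed in CpG dinucleotides, 23 for Cycs and 6 for Cyct, and 14 for Cox6b1 and 8 for Cox6b2 (windows not printed). The order was the other way for Cox7b and Cox7b2, with 5 and 9. The median was 14 over the members and 6.0 over all genes.

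The exchange of forms can be read at the level of each subunit position of complex IV. Over 10 positions, the level of the main somatic form ranged from 52.3 to 402 FPKM in the first pre-meiotic library, a 7.67-fold span. At pachytene the same forms ranged from 5.23 to 399 FPKM in the first condition and from 2.27 to 443 in the second, spans of 76.3-fold and 195-fold. With all forms of a position summed, the pachytene spans were 21.4-fold and 19.2-fold, and the lowest position was the single-form subunit Cox5b at 51.0 and 57.7 FPKM. The highest was COX8, at 1091 and 1109 FPKM, against 175 and 183 in the pre-meiotic table.

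A further exchange involved NDUFA4, a protein named for complex I and now counted with complex IV. Ndufa4 was at 187 and 292 FPKM at day 3, 196 and 179 in the pre-meiotic table, 10.7 and 9.82 at leptotene/zygotene, and 13.3 and 15.2 at pachytene. The members' related gene Ndufa4l2 was at 4.86 and 8.91, 3.31 and 1.12, 26.8 and 22.2, and 28.3 and 26.5 FPKM. AA467197, a paralogue outside the name rule that was chosen after its values were seen, was at 1.097 and 9.79, 7.78 and 6.697, 276 and 262, and 361 and 470 FPKM. At pachytene Ndufa4 was thus 13.1-fold below its pre-meiotic level, and the summed level of the 3 genes was 403 and 512 FPKM, against 207 and 187 in the pre-meiotic table.

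**Figure D2:**
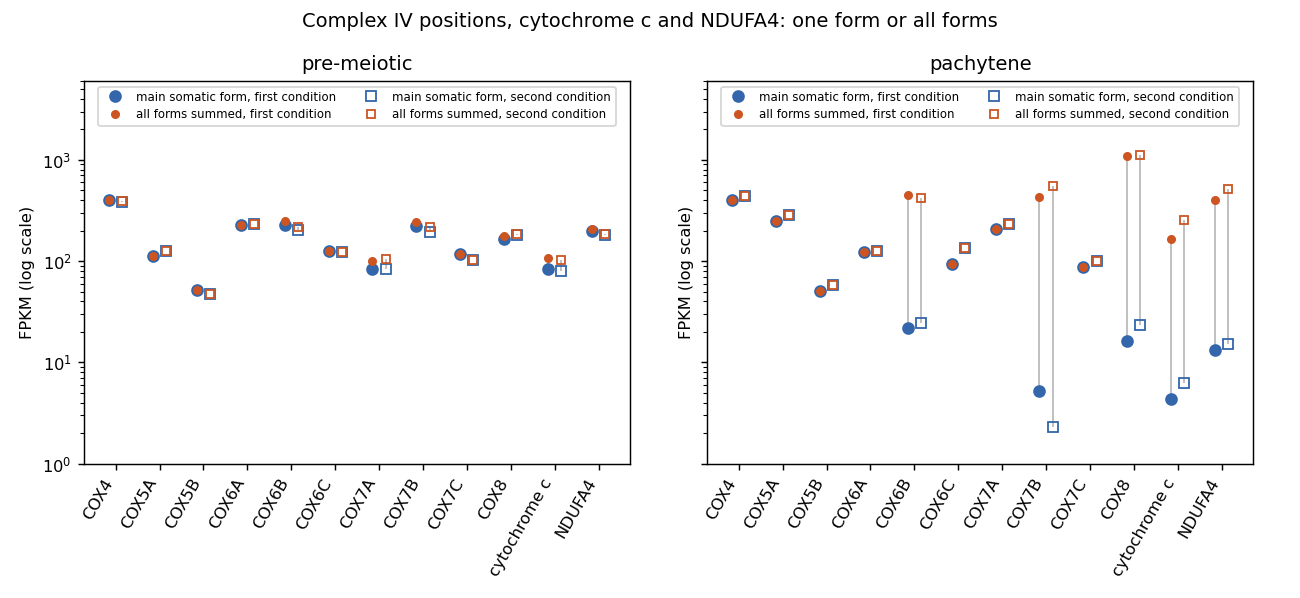
FPKM (log axis) of the main somatic form alone (blue) and of all forms summed (orange) at 10 complex IV positions, cytochrome c and NDUFA4, with filled circles for the first and open squares for the second condition. In the pre-meiotic panel both values nearly coincide, while at pachytene the grey lines joining them are long at COX6B, COX7B, COX8, cytochrome c and NDUFA4, where the somatic forms lie between 2.27 and 24.2 FPKM.

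Not every complex IV subunit changed form. Cox4i1, the main form of a large nuclear subunit, was at 402 and 387 FPKM in the pre-meiotic table, 217 and 209 at leptotene/zygotene, and 399 and 443 at pachytene. Cox5a, which has a single form, was at 113 and 127, 175 and 181, and 249 and 286 FPKM, and Cox7a2 was at 83.0 and 82.7, 182 and 162, and 206 and 232 FPKM in the same 3 tables. Cox7a2 was 2.64-fold higher at pachytene than in the pre-meiotic table. Most other tissue forms were low. Cox4i2 did not exceed 4.49 FPKM, Cox6a2 did not exceed 3.23, and Cox8b was listed at 0 in all but the 2 day 3 libraries, at 0.520 and 0.203. Cox7a1, the heart and muscle form of COX7A, was higher in whole testis, at 13.5 and 15.7 FPKM at day 3 and 16.7 and 22.5 in the pre-meiotic table, against 0.295 and 1.69 at pachytene. The 4 striated muscle markers summed to 27.98 and 27.55 FPKM at day 3, of which Acta1 held 18.2 and 17.3 and Tnnt3 6.61 and 6.18, and to 3.72 and 3.11 in the pre-meiotic table, where Mb was listed at 0. The 2 brown fat markers summed to between 17.54 and 31.51 FPKM in whole testis, nearly all of it Cidea, with Ucp1 at most at 0.291. The part of either in the Cox7a1 level was not tested.

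The 3 X-linked members were all low in the spermatocyte libraries. Ndufa1, an accessory subunit of complex I, was at 99.3 and 157 FPKM at day 3, 96.1 and 64.7 in the pre-meiotic table, 12.6 and 15.4 at leptotene/zygotene, and 12.4 and 13.1 at pachytene. Ndufb11, another accessory subunit, was at 89.6 and 128, 39.3 and 41.3, 2.88 and 1.66, and 2.15 and 2.38 FPKM, and was the lowest complex I member at pachytene among those with a mean of at least 1 FPKM. Unlike Cox7b, neither has a second form among the members. From day 3 to the pre-meiotic table Cox7b and Ndufb11 were already counted as lower (Cox7b alone under all 3 scalings described below), and the median log2 ratio of the 3 was -1.43 (all genes: -0.10). Between the pre-meiotic and the leptotene/zygotene tables, the X-linked members had a median log2 ratio of -4.09, against -0.84 for the 91 autosomal members, -2.18 for 1214 X-linked genes and -1.30 for 19109 autosomal genes.

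Between leptotene/zygotene and pachytene the X-linked members moved little, with a median log2 ratio of -0.14 and values from -1.15 for Cox7b to -0.00 for Ndufb11. The autosomal members had a median of 0.62, all X-linked genes -0.43 and all autosomal genes 0.31. With each library scaled to the same FPKM sum, the median of the X-linked members was 0.21, so its sign depends on the scaling. Without the libraries labelled leptotene/zygotene, pachytene against pre-meiotic gave 6.27-fold lower Ndufa1, 17.1-fold lower Ndufb11 and 54-fold lower Cox7b.

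**Figure D3:**
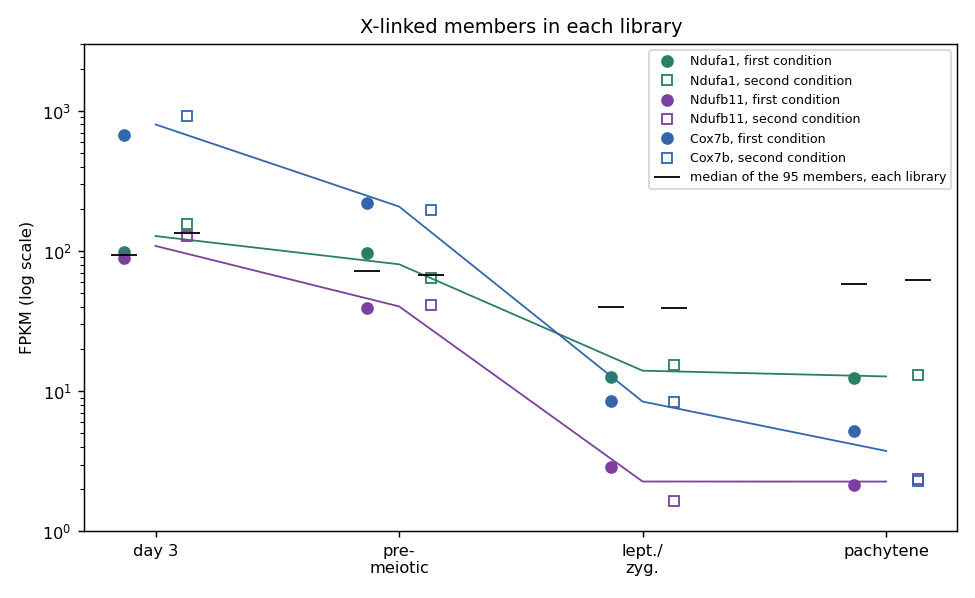
FPKM (log axis) of the 3 X-linked members in each library, with filled circles for the first and open squares for the second condition, lines through the mean of both, and black bars for the median of the 95 members in each library. All 3 genes lie below the bars in every spermatocyte library, at 1.66 to 15.4 FPKM.

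Over all members, pachytene was next set against pre-meiotic testis. A member was counted as higher or lower in a stage where the libraries of both stages were at least 2-fold apart in every pairing, among genes of at least 1 FPKM in any of the 4 libraries. By this rule, 14 of 93 members were higher at pachytene and 19 were lower. Over all 20097 genes, 23% were higher and 43.2% were lower. The median log2 ratio was -0.23 for the members and -1.004 for all genes. A scaling moves both medians alike, so the gap between them is nearly the same by construction, while the counts and signs move. The sign of the members' median depends on the scaling: divided by the median of the 10413 genes at 1 FPKM or more in all 8 libraries, they were 0.52 and -0.28, and 21 members were higher and 11 lower. Under equal FPKM sums they were -0.35 and -1.13, with 13 higher and 20 lower. A common set of 13 higher and 11 lower members met the rule under all 3 scalings, and these sets held every germline form, every somatic counterpart, Ndufa4 and all 3 X-linked members. Shares over all genes were counted as deposited only. Member counts under other scalings, here and below, therefore do not show whether the members stand apart.

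**Figure D4:**
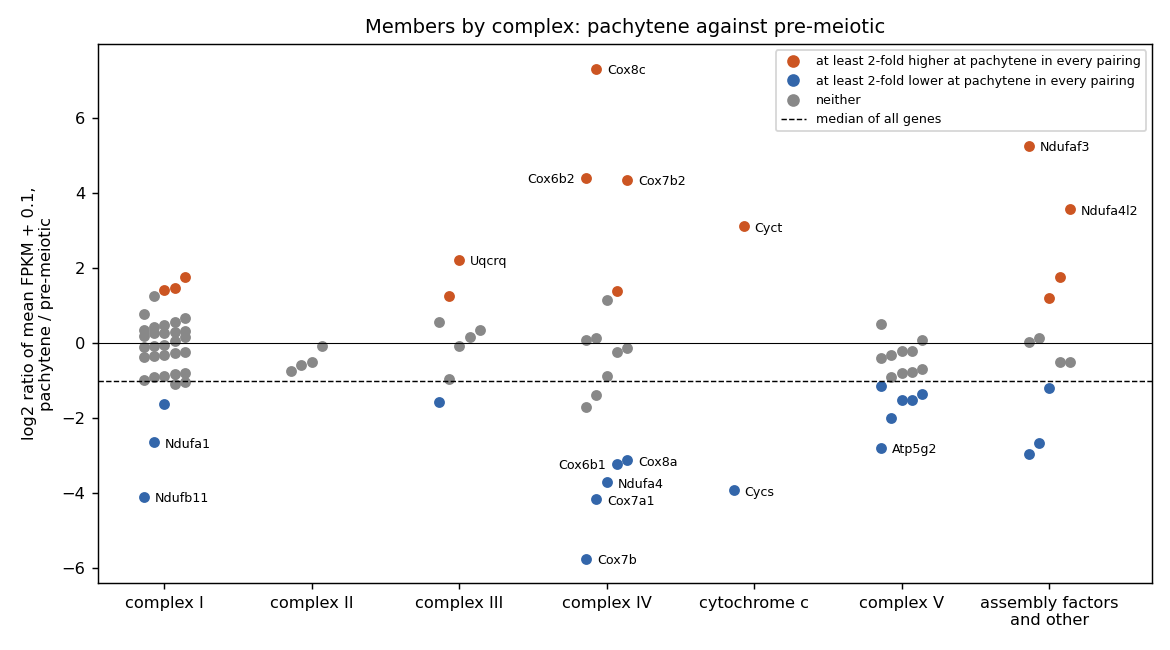
The log2 ratio of mean pachytene to mean pre-meiotic FPKM (0.1 added) for each member, by complex, coloured by whether the libraries were at least 2-fold apart in every pairing, with a dashed line at the median of all genes. Complex IV and cytochrome c span from -5.75 for Cox7b to 7.33 for Cox8c, while the 4 complex II members lie between -0.74 and -0.07.

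Complex I is the NADH dehydrogenase. Of its 35 members past the floor, 3 were higher and 3 lower at pachytene than in the pre-meiotic table, with a median log2 ratio of -0.04 as deposited, where all genes had 23% higher, 43.2% lower and a median of -1.004. The core subunits, which carry the flavin and iron-sulphur centres, were not of one kind. Ndufv2 was at 118 and 121 FPKM in the pre-meiotic table and 296 and 345 at pachytene, a 2.68-fold rise and the highest complex I mean at pachytene. Ndufs8 was at 57.8 and 53.0 and then 16.8 and 19.1 FPKM, 3.07-fold lower, a call that ended relative to the common genes. Ndufs1 was at 59.4 and 47.5 and then 59.8 and 62.1 FPKM, less than 2-fold apart in every pairing. Among accessory subunits, Ndufa12 was at 96.2 and 126 FPKM at day 3, 9.69 and 13.1 in the pre-meiotic table, and 33.4 and 44.5 at pachytene, so its pre-meiotic level was the lowest of the 4 stages.

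Complex II, which is also succinate dehydrogenase of the citric acid cycle, had no member past the 2-fold rule from pre-meiotic to pachytene. Sdha, its flavoprotein, was the highest, at 407 and 487 FPKM in the pre-meiotic table and 353 and 279 at pachytene. Sdhd, a membrane anchor, was the lowest at pachytene, at 40.0 and 52.3 FPKM against 77.6 and 76.3.

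Complex III held a rising and a falling small subunit. Uqcrq was at 104 and 119 FPKM in the pre-meiotic table, 394 and 332 at leptotene/zygotene, and 495 and 547 at pachytene, 4.68-fold above the pre-meiotic mean. Uqcr11 was at 58.9 and 59.2, 6.04 and 11.0, and 14.1 and 25.3 FPKM, 2.98-fold lower at pachytene than pre-meiotic, a call that ended relative to the common genes. Uqcrc1, a core protein, was 2.37-fold higher at pachytene, while its partner Uqcrc2 was at 245 and 238 FPKM in the pre-meiotic table and 227 and 311 at pachytene.

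In complex V, the ATP synthase, 6 of 16 members were lower at pachytene than in the pre-meiotic table and 0 were higher, with a median log2 ratio of -0.79. That share of lower members is under the 43.2% of all genes, whose median was -1.004. The 3 genes for the membrane c subunit, which encode the same mature protein, were all counted as lower. Atp5g1 was at 48.4 and 51.7 FPKM and then 17.8 and 21.2, Atp5g2 at 81.3 and 82.3 and then 10.6 and 12.9, and Atp5g3 at 280 and 314 and then 64.1 and 84.4. With levels divided by the median of the common genes, Atp5g2 alone among these 3 kept the 2-fold rule. The catalytic beta subunit gene Atp5b was the highest member of the complex at pachytene, at 680 and 724 FPKM, against 836 and 917 in the pre-meiotic table. Atp5j was at 382 and 429 and then 495 and 663 FPKM.

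Among the 11 names that are not subunits, 4 were higher and 3 lower (all genes: 23% and 43.2%). Ndufaf3, an assembly factor of complex I, was at 7.91 and 12.4 FPKM at day 3, 5.82 and 5.22 in the pre-meiotic table, 120 and 97.8 at leptotene/zygotene, and 211 and 219 at pachytene, 38.3-fold above the pre-meiotic mean. Ndufaf4, which acts with it, moved the other way, from 16.9 and 14.9 to 1.32 and 2.60 FPKM, 7.77-fold lower. Ndufaf2 was 2.30-fold higher and Ndufaf1 2.31-fold lower at pachytene, and neither met the rule under all 3 scalings. Cox4nb, a gene that neighbours Cox4i1 and is now named Emc8, was 6.31-fold lower.

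As deposited, the libraries labelled leptotene/zygotene showed the lowest member levels. Against the pre-meiotic table, 39 of 94 members were lower (all genes: 48.1%) and 9 were higher (all genes: 23%). Against them, 13 of 93 members were higher at pachytene (all genes: 9.33%) and 0 were lower (all genes: 6.25%). The 13 included the complex II anchors Sdhc (36.4 and 38.7, then 99.5 and 128 FPKM) and Sdhd (14.4 and 18.9, then 40.0 and 52.3 FPKM), and Uqcrc2. The split turned on the scaling: relative to the common genes it was 22 higher and 12 lower for the first comparison, and 0 higher and 1 lower for the second, while equal FPKM sums gave 5 and 50, and 25 and 0. Relative to the common genes, the members' median log2 ratio of leptotene/zygotene to pre-meiotic was 0.31 (all genes: -0.14). The spermatid markers given above were highest in the libraries labelled leptotene/zygotene, and their part was not tested.

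From day 3 to the pre-meiotic table, 2 of 94 members were higher (all genes: 7.6%), Cox7b2 and Cyct, and 9 were lower (all genes: 12.6%). Under equal FPKM sums, 2 were higher and 5 lower. Ndufa3 was at 606 and 796 FPKM at day 3 and 183 and 217 in the pre-meiotic table. Atp5k was at 130 and 204 FPKM and then 31.6 and 25.3. From day 3 to pachytene, 7 members were higher (all genes: 23.3%) and 37 lower (all genes: 44.6%). With the common genes as the scale, 15 were higher and 21 lower, and with equal sums, 14 and 28.

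Other genes of the pathway were read from fixed lists. All 13 protein genes of mitochondrial DNA were listed at 0 in every library. Such values do not tell absent RNA from RNA that was not counted. Of 25 other assembly factors, 12 were lower and 1 higher at pachytene than in the pre-meiotic table, where 43.2% of all genes were lower and 23% higher, so these counts and the next ones set no list apart. The higher one was Sco2, a copper chaperone of complex IV, at 5.39 and 5.73 FPKM and then 16.1 and 20.8. This 2-fold rule placed 6 of 13 citric acid cycle enzymes lower and 1 higher, Sucla2, a succinyl-CoA ligase subunit that was at 80.3 and 82.4 FPKM and then 409 and 430. X-linked Pdha1, a subunit of pyruvate dehydrogenase, was at 30.0 and 24.0 FPKM and then 0.658 and 3.10, and its autosomal germline copy Pdha2 at 2.53 and 3.54 and then 99.8 and 104. The adenine nucleotide carrier gene Slc25a5, also X-linked, was at 107 and 111 FPKM and then 4.69 and 7.18, while the germline carrier Slc25a31 was at 76.1 and 64.4 and then 52.0 and 62.4. The germline share of the Slc25a5 pair was thus 91.7% and 89.7% at pachytene without a higher germline level.

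Among 14 regulators of mitochondrial biogenesis, 7 were lower and 0 higher at pachytene (all genes: 43.2% and 23%). Nrf1, which encodes the factor whose site letters were searched above, was at 47.5 and 39.1 FPKM in the pre-meiotic table and 13.95 and 17.7 at pachytene. Tfam, which packages mitochondrial DNA, stood out at leptotene/zygotene, at 601 and 715 FPKM, against 85.6 and 80.8 in the pre-meiotic table and 114 and 144 at pachytene. Those are the libraries with the most spermatid marker RNA, and the part of those markers was not tested.

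Within the tables, called members were found at day 3. In the authors' deposited table, 22 of 95 members (23.2%) had a q-value of at most 0.05 and were higher in the second condition, and 0 were lower. Over all 24020 genes tested, 4.8% were called higher and 9.97% lower. Without adjustment, 55 members were higher and 0 lower at a p-value under 0.05 (all genes: 11.4% and 15.6%). The authors' Cuffdiff test compares 2 libraries, so these calls do not carry over to genotypes. The median log2 difference of the 94 members past 1 FPKM was 0.52, with 88 above 0, and that of all genes was 0.05.

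Called members came from 4 of the 5 complexes, 13 rows from complex I, 1 from complex III, 2 from complex IV and 6 from complex V. Ndufc1, an accessory subunit, was at 77.1 and 155 FPKM, and Ndufa5 at 133 and 241. The authors' deposited table gave them log2 folds of 1.01 and 0.86, with implied errors (the absolute ratio of log2 fold to test statistic) of 0.24 and 0.20. The ATP synthase stalk gene Atp5h was at 117 and 176 FPKM, with a log2 fold of 0.59, an implied error of 0.13 and q = 0.000144 in the authors' deposited table. The second Ndufb8 row, at 3.29 and 23.9 FPKM, had the highest log2 difference of the 95, 2.82, and its reads are shared with the first row, at 275.5 and 374.

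Further called members were Ndufb4, Ndufb5, Ndufb6, Ndufb10, Ndufc2, Ndufs3, Ndufv1 and Ndufv2 of complex I, Uqcrh of complex III, Cox6b2 and Cox7c of complex IV, and Atp5f1, Atp5g3, Atp5j, Atp5k and Atp5o of complex V. Their log2 differences lay between 0.30 for Ndufv1 and 0.98 for Cox6b2. Sdha was among the 6 members below 0, at 751 and 631 FPKM, as were Cox8c, Cox7b2 and Cyct. The second day 3 library had an FPKM sum 1.293 times that of the first. Scaled to equal sums, the median was 0.15 for the members, with 71 above 0, and -0.32 for all genes, and Ndufv1 turned to -0.07. The same scaling gave the members 0.27 at pachytene. The median of all genes was not computed there, so the tables cannot be ranked by these values. Genes of short loci were higher in the second day 3 library over all genes too, among those of at least 10 FPKM in either condition. The median was 0.45 under 5 kb and -0.21 over 60 kb, against 0.64 for 25 members and 0.49 for 9. A locus here is the window of a row, which can be longer than the gene, as where Cox4i1 and Cox4nb share 1. The spermatogonial markers summed to 115 and 84.2 FPKM at day 3. The part of the sum, locus length and markers in the members' shift was not tested.

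**Figure D5:**
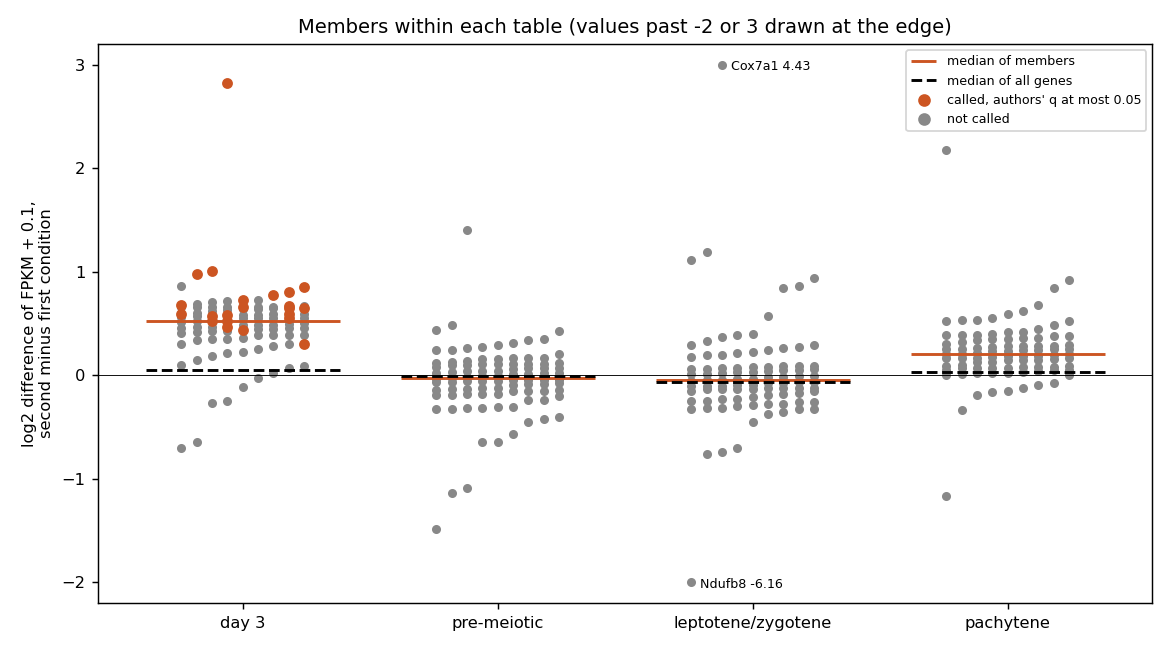
The log2 difference of FPKM + 0.1, second minus first condition, for members of at least 1 FPKM in either condition of each table, with called members in orange and lines at the medians of members and of all genes. The day 3 members lie mostly above 0 around a median of 0.52, and the other 3 tables hold no called member.

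For pre-meiotic testis the members' median log2 difference was -0.02 (all genes: -0.01) and no member was called, against 0.471% of genes called higher and 0.68% called lower. At a p-value under 0.05 without adjustment, Cuffdiff gave 2 of 93 members higher and 6 lower (all genes: 5.14% and 5.32%). Ndufs1 came nearest to a call, at 59.4 and 47.5 FPKM, with q = 0.0505 in the authors' deposited table. The largest log2 differences there were in low members, 1.40 for Cox6a2 (1.15 and 3.19 FPKM) and -1.49 for Ndufa4l2 (3.31 and 1.12 FPKM). In the leptotene/zygotene table the median was -0.05 (all genes: -0.07), with no call (all genes: 0.804% higher and 1.33% lower) and 2 of 94 members higher and 0 lower at an unadjusted p-value under 0.05 (all genes: 4.35% and 7.2%). Ndufab1, the mitochondrial acyl carrier protein, was at 5.15 and 11.2 FPKM there, and Ndufaf1 at 10.4 and 19.9.

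At pachytene the members again sat mostly above 0. Their median log2 difference was 0.20, with 83 of 91 above 0, against 0.03 for all genes. No member was called (all genes: 0.614% higher and 1.01% lower), and 7 were higher and 0 lower at a p-value under 0.05 without adjustment (all genes: 4.25% and 7.06%). Uqcrc2, at 227 and 311 FPKM, had the smallest q-value, 0.0877 in the authors' deposited table. Cyct was at 161 and 248 FPKM and Cox6c at 93.4 and 135, while Sdha was lower in the second library, at 353 and 279. The immediate early genes summed to 25.04 FPKM in the first and 99.0 in the second library of this table, and the macrophage markers to 4.86 and 45.3, of which H2-Ab1 held 3.35 and 43.5. At leptotene/zygotene, where the members' median was -0.05, the same 2 lists summed to 34.1 and 96.3 FPKM, and to 9.52 and 45.6. The part of these differences between libraries in the members' shift at pachytene was not tested.

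By size alone, at least 1.5-fold with 1 FPKM in either condition, 34 of 94 members were higher and 2 lower at day 3, against 13.1% and 17.7% of all genes. For pre-meiotic testis, 1 was higher and 5 lower (8.08% and 8.42% of all genes). At leptotene/zygotene 6 were higher and 4 lower (11.3% and 15.2%), and at pachytene 6 were higher and 1 lower (10.3% and 13%). The lower member at pachytene was Cox7b, at 5.23 and 2.27 FPKM. Of the 4 germline forms, 1 lay above 0 and 3 below at day 3, and 0 and 4 in the pre-meiotic table. The counts were 0 and 4 at leptotene/zygotene, and 3 and 1 at pachytene. Over all genes past 1 FPKM they were 9434 and 8272, 8470 and 8888, 6890 and 9271, and 8622 and 7531. The order of the conditions may differ between tables. Cox8c differed by -0.71, -1.14, -0.06 and 0.01 on the log2 scale in the order of the tables, and Cox7b2 by -0.65, -0.05, -0.10 and 0.39.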

How the data were processed

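The members and gene lists were chosen with earlier results of these data known. Per the submitters' processing notes, the authors ran Cufflinks 1.1.0 and Cuffdiff after TopHat 1.3.0 with Bowtie 0.12.7. The tables' genome build was not given in the sources used here. Per the file headers, the authors deposited FPKM for 2 conditions per table, and a log2 fold (treated as a score, since infinite ratios are written as extreme numbers), a test statistic (also a score), a p-value and a q-value. Depth is unknown, and with 1 library per genotype and stage no test of replicates was possible. The labels do not state strand, so reads of a gene and an antisense partner cannot be told apart.

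Log2 differences were computed here as log2 of FPKM + 0.1, with a floor of 1 FPKM. Calls are the authors' q-values of at most 0.05. Stage counts needed a 2-fold gap in every pairing of libraries. A run on simulated data checked only that this rule was coded as stated. Its planted changes were larger than 2-fold, with little noise and no shift of scaling. Computation used Python 3.11.15, pandas 2.3.3, numpy 2.4.6 and scipy 1.17.1. Genes were named by a fixed rule: forms of a pair, X-linked members, called members, and the extremes of each table, complex and stage ratio. Cox5a, Cox5b, Cox6c, Cox4nb, Ndufa3, Ndufa12, Ndufs1, Ndufs8, Ndufaf2, Sdhc, Uqcrc1, Uqcrc2, Atp5g1 and Atp5g2, and the genes named from the pathway lists other than the Slc25a5 and Pdha1 pairs, were chosen after their values were seen. Alternatives were other pseudocounts, floors, scalings, single conditions and leaving out non-subunits. Protein sequences and small RNA libraries were not used here, and 1 member is counted but not reported by name.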

Additional observations from a re-analysis of the deposited data

Results flagged for a closer look

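Cox6b2 and Ndufb4 were at least 1.5-fold apart in opposite directions in the day 3 and pre-meiotic tables, at 10 FPKM or more in every library concerned. The log2 difference of Cox6b2, second minus first condition, was 0.98 at day 3 and -0.64 in the pre-meiotic table. That of Ndufb4 was 0.66 and -0.64. The difference between the tables was not tested, each value rests on 1 library per condition, and nothing says that the order of the conditions is the same in both tables.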

How the results depend on the processing

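No paired analysis was possible because each genotype and stage has 1 library. At day 3, 10 members passed a q-value of at most 0.01, a threshold at which the share of all genes was not counted. By size alone (1.5-fold), the counts higher and lower were 34 and 2 at day 3, 1 and 5 in the pre-meiotic table, 6 and 4 at leptotene/zygotene, and 6 and 1 at pachytene. Scaling each library to the same FPKM sum, an alternative added after seeing the data, gave medians of 0.151 at day 3, -0.119 at leptotene/zygotene and 0.271 at pachytene, and turned Ndufv1 at day 3 to -0.069. The other 29 alternative medians stayed within the 95% order-statistic interval over members. Among stage counts, 16 of 60 alternatives moved by over 1.5 times. Under equal sums they were 5 lower for pre-meiotic against day 3, 5 higher for leptotene/zygotene against pre-meiotic, 25 higher for pachytene against leptotene/zygotene and 14 higher for pachytene against day 3, and the X-linked median was 0.207. Relative to the common genes they were 22 higher and 12 lower, 0 higher and 1 lower, and 15 higher and 21 lower for the last 3 of these comparisons, and 11 lower for pachytene against pre-meiotic. With the first condition only, 3 members were lower at pachytene than at leptotene/zygotene and 11 higher than at day 3. With the second only, 45 were lower in the pre-meiotic table than at day 3, and 26 were higher and 1 lower at pachytene than at leptotene/zygotene. Shares over all genes were not counted for single conditions, so these counts do not show whether the members stand apart. The cause was not tested. Depth is unknown, so low FPKM carry an unknown counting error.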

Other observations

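Summed over all 95 members, FPKM came to 14586 and 20265 at day 3, 9952 and 10001 in the pre-meiotic table, 7207 and 6863 at leptotene/zygotene, and 10771 and 12102 at pachytene. As a share of each library's FPKM sum this was 1.399% and 1.503%, 1.324% and 1.368%, 0.721% and 0.654%, and 1.301% and 1.533%. Complex IV with its germline forms summed to 2002 and 1925 FPKM in the pre-meiotic table and 3186 and 3475 at pachytene. Complex V summed to 3201 and 3310 FPKM and then to 2233 and 2629. The 4 germline forms alone summed to 48.5 and 76.5 FPKM at day 3 and to 2082 and 2276 at pachytene.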
